A study of Mus musculus with 19 samples.

Results

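The genes Ezh1, Ezh2, Eed, Suz12, Jarid2 and Mtf2, which encode the core and accessory subunits of Polycomb repressive complex 2 (PRC2), were followed across 8 groups of mouse embryonic stem cell (ESC) libraries. They were chosen by name, and all 6 were found among the 12942 genes of the table and passed the filter on low values. The 19 libraries came from 3 male ESC lines, named J-34, J-35 or J-37, taken at passage 4 and grown on mouse embryonic fibroblast (MEF) feeders. At passage 10, after 6 passages in the medium, there were 2 libraries each of S/L, of 2i/L, of a2i/L and of PKCi/L, and at passage 7, after 3 passages, 2 libraries of S/L+PD. At passage 20, after 16 passages, there were 3 libraries each of S/L and of 2i/L, and 3 more of cells moved from 2i/L at that passage into S/L for 3 passages (passage 23, called the return here). Media are named as in the labels, which give no genetic change, and cells positive for SSEA1 were sorted before RNA was taken. The series title names the question, which is what long suppression of Mek1/2, kinases that activate Erk, does to ESCs.

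PRC2 places methyl groups on lysine 27 of histone H3 (H3K27), a mark of silent developmental genes in ESCs. Ezh2 and the closely related Ezh1 are its alternative catalytic subunits. Suz12 is the scaffold that holds the complex together, and Eed reads the finished mark and stimulates the enzyme. Jarid2 and the Polycomb-like protein Mtf2 belong to different forms of PRC2 and help to bring it to CpG-rich DNA. Promoters of the members called in 2i/L at both passages are shown, so that their CpG content and motifs can be read beside the values.

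Promoter sequence was taken from RefSeq (GRCm38.p6), as the 250 bases before the most upstream annotated start of each gene, written 5′ to 3′ along the gene, and all 6 members matched by symbol. The genes shown are Suz12 and Mtf2, which were higher in 2i/L, and Eed and Jarid2, which were lower. The windows lie at chr11:79992856-79993105 on the plus strand for Suz12, chr5:108065424-108065673 on the plus strand for Mtf2, chr7:89980977-89981226 on the minus strand for Eed and chr13:44730524-44730773 on the plus strand for Jarid2. Capitals mark matches to a searched motif on either strand.
Suz12: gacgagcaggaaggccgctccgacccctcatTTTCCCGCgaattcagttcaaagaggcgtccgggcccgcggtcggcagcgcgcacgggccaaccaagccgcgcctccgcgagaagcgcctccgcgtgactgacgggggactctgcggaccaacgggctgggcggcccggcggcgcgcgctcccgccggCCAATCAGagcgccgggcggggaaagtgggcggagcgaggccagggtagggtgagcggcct
Mtf2: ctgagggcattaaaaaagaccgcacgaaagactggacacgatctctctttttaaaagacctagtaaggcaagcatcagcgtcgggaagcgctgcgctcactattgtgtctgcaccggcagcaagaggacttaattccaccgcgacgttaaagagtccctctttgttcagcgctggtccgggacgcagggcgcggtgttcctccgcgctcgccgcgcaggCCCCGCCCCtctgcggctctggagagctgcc
Eed: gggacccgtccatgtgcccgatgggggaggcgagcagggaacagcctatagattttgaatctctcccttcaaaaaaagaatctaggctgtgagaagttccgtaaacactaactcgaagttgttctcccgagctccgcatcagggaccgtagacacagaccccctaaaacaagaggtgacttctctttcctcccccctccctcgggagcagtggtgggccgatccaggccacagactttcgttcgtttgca
Jarid2: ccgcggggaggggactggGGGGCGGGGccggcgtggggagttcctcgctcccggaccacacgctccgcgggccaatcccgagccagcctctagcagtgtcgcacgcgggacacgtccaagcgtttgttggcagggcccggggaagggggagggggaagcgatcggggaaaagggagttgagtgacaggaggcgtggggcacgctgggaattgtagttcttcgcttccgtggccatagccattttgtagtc
The Suz12 window held 37 CpG dinucleotides, more than in 97.8% of 32851 promoter windows, whose median was 6. The windows of Mtf2 and Jarid2 held 23 each, as did that of Ezh2, and 86.7% of windows held fewer. The window of Ezh1 held 14 and that of Eed 12. In the Suz12 window the E2F motif form TTTCCCGC, which 0.895% of windows hold, and the CCAAT box CCAATCAG, which 3.83% hold, were found. The windows of Mtf2 and Jarid2, which moved in opposite directions in 2i/L, both held the GC box GGGGCGGGG, which 10.4% of windows hold. The window of Eed held none of the motifs searched. The other motifs searched were ETS (CCGGAAGT), E2F (TTTGGCGC), NRF1, YY1, CRE (TGACGTCA) and TCF/LEF (CTTTGATC), held by 2.88%, 0.417%, 0.782%, 0.207%, 1.55% and 0.801% of windows. A match is a string of letters, not a measured binding site.

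Expression was deposited as CPM (a gene's reads per M reads of its library), and depth read from the steps between low values was 33.88 to 45.41 M reads in the 10 libraries of passages 7 and 10. It could be read for 2 of the 9 later libraries, at 49.66 and 57.15 M reads. The later libraries stood apart, with 292986 to 396883 CPM over all listed genes against 421426 to 465897 CPM, and with 14870 to 29548 CPM of Lars2, whose level separates the sets, against 56.9 to 3797 CPM. Each change of a member is therefore given as deposited and, where this alters its call, after scaling by the trimmed mean of M values (TMM), which sets libraries to a shared level over most genes, and counts over a list are given on both scales where they differ. The ESC factors Pou5f1 (224.53 to 554.14 CPM) and Sox2 (123.53 to 235.44 CPM) were present in every library. Of 8 ESC marker genes looked for, 7 were in the table, and Fut4 was not. In bulk RNA, fewer cells of a type and less RNA per cell cannot be told apart.

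**Figure D1:**
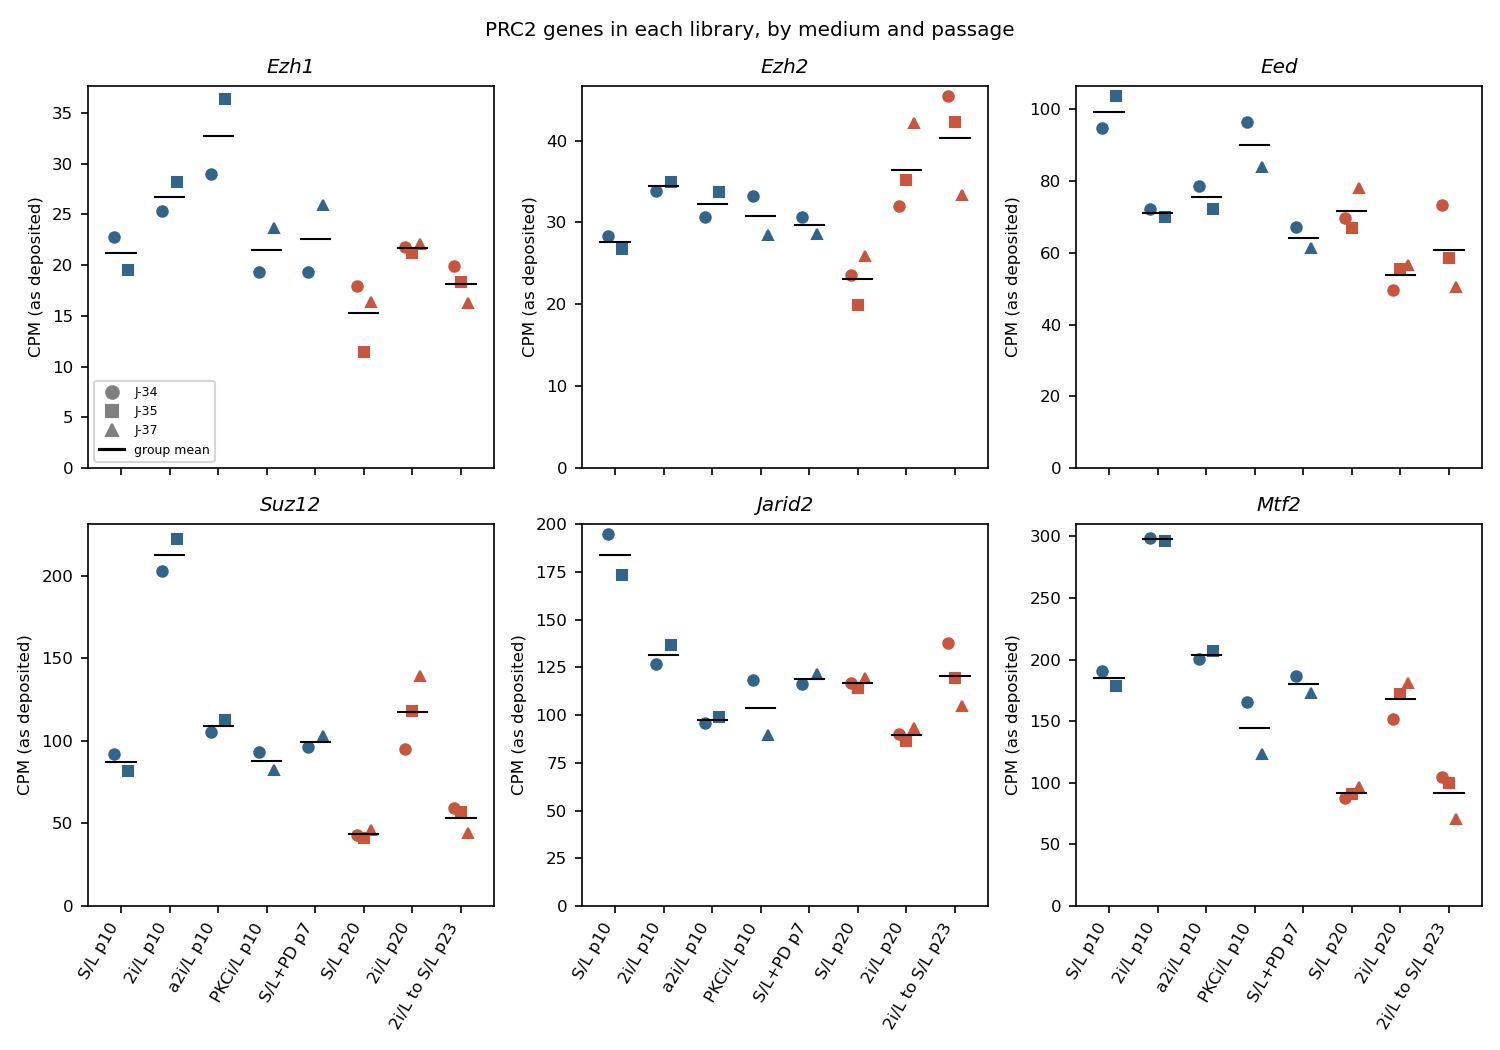
CPM of each PRC2 gene (vertical axes) in the 8 groups, with 1 point per library, marker shape for the ESC line, blue for passages 7 and 10, red for passages 20 and 23, and a black bar for the group mean. Suz12 and Mtf2 stand highest in 2i/L at passage 10, Eed and Jarid2 in S/L at passage 10, and Ezh2 in the return group.

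Per kilobase of annotated exon, the catalytic genes stood below the other members, whose ranges overlapped with each other. Mtf2 stood at 12.4 to 52.4 CPM per kilobase over the 19 libraries, Suz12 at 8.38 to 44.9, Eed at 12.97 to 27.1 and Jarid2 at 8.88 to 20.04. The catalytic genes were lower, with Ezh2 at 2.98 to 6.80 and Ezh1 at 1.53 to 4.89 CPM per kilobase, so every Ezh2 and Ezh1 value lay under every value of the other members. These levels use the union of exons in GENCODE M21, a newer annotation than the one counted on.

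In 2i/L at passage 10, the scaffold gene Suz12 and the recruiting gene Mtf2 were higher than in S/L, and Eed and Jarid2 were lower. Suz12 read 202.89 and 222.2 CPM in lines J-34 and J-35 in 2i/L, against 92.03 and 81.7 CPM in S/L. Mtf2 read 298.58 and 296.35 CPM against 190.69 and 178.59 CPM. The 2 media did not overlap for these or any other member. The share of all genes without overlap was not read for 2i/L against S/L at passage 10. Between a2i/L and S/L, another comparison of 2 libraries each, it was 68.1%. Suz12 rose 2.44-fold (log2 fold change 1.29 ± 0.16, SE, adjusted p = 2.09e-08, limma with Benjamini-Hochberg adjustment over all genes, as for every adjusted p here) and Mtf2 1.61-fold (0.69 ± 0.16, adjusted p = 0.00071). Eed read 72.3 and 70.11 CPM against 94.91 and 103.79 CPM, and Jarid2 126.7 and 136.66 CPM against 194.67 and 173.15 CPM. Eed fell (log2 fold change -0.48 ± 0.15, adjusted p = 0.0105), and Jarid2 fell by about as much (-0.48 ± 0.15, adjusted p = 0.00839).

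The catalytic genes lay higher in both 2i/L libraries at passage 10 but missed the threshold. Ezh1 was at 25.31 and 28.17 CPM against 22.77 and 19.55 CPM (0.33 ± 0.18, adjusted p = 0.14). Ezh2 was at 33.89 and 34.98 CPM against 28.39 and 26.78 CPM (0.32 ± 0.16, adjusted p = 0.115), and it passed with TMM scaling (0.29, adjusted p = 0.017). So 2 members rose and 2 fell, while among all genes 22.7% rose and 17.5% fell, around a median log2 fold change of 0.04. With TMM scaling 3 rose and 2 fell, against 26% and 23.4% of all genes. The calls of Suz12 and Mtf2 held with any 1 of the 4 libraries left out, and those of the other members did not: without J-34 of S/L or of 2i/L the adjusted p of Jarid2 was 0.10 or 0.088, and without J-35 of S/L or of 2i/L that of Eed was 0.10 or 0.072, and with TMM scaling that of Ezh2 was 0.12 or 0.097.

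**Figure D2:**
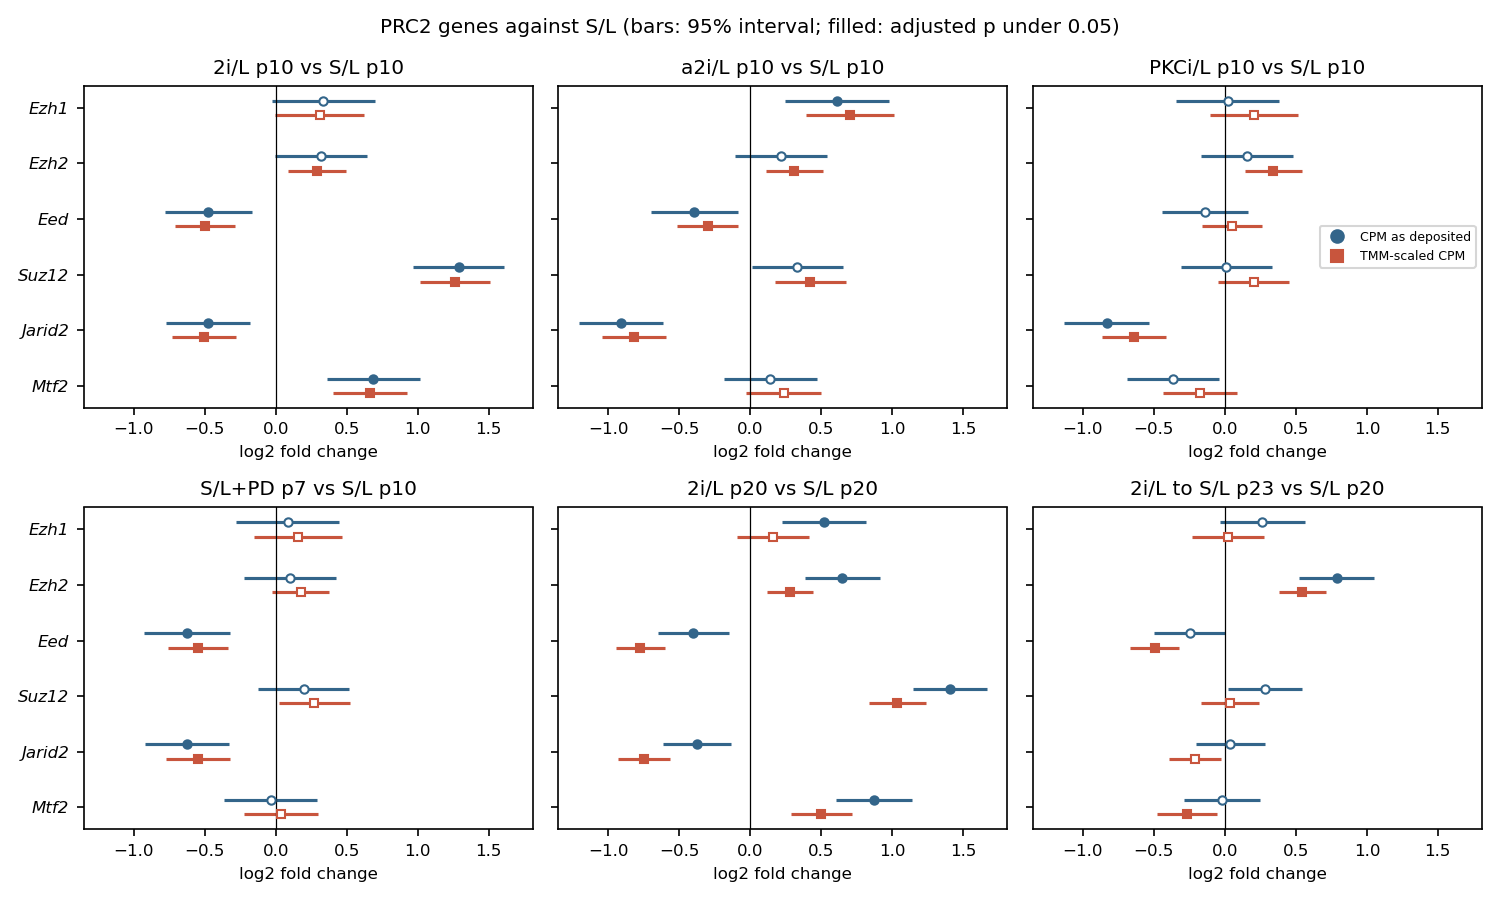
Log2 fold change of each PRC2 gene (horizontal axes) in the 6 comparisons with S/L, as circles for CPM as deposited and squares for TMM-scaled CPM, with 95% intervals and filled symbols where the adjusted p is under 0.05. In 2i/L at both passages Suz12 and Mtf2 lie to the right of 0 and Eed and Jarid2 to the left, and in the return group Ezh2 lies to the right of 0 on both scales.

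After 16 passages in 2i/L the same genes differed from S/L at passage 20, in other libraries, made from J-34 and J-35 again and from J-37. Suz12 in 2i/L read 94.86 CPM in J-34, 117.96 in J-35 and 139.09 in J-37, against 42.88, 41.45 and 46.13 CPM in S/L. Mtf2 read 152.03, 172.29 and 180.77 CPM against 87.51, 91.17 and 96.48 CPM. Every 2i/L library lay above every S/L library for both genes. Suz12 rose 2.65-fold (1.41 ± 0.13, adjusted p = 1.54e-11) and Mtf2 1.83-fold (0.87 ± 0.13, adjusted p = 5.96e-07). Eed read 49.63, 55.48 and 56.71 CPM against 69.59, 66.96 and 78.01 CPM, and Jarid2 read 89.86, 86.29 and 93.28 CPM against 116.63, 114.1 and 119.29 CPM. Both lay lower in every 2i/L library, and Eed fell (-0.40 ± 0.12, adjusted p = 0.00479) as did Jarid2 (-0.38 ± 0.12, adjusted p = 0.00674).

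Both catalytic genes passed the test at passage 20. Ezh2 read 31.96, 35.2 and 42.16 CPM against 23.54, 19.88 and 25.85 CPM (0.65 ± 0.13, adjusted p = 5.76e-05), and Ezh1 21.79, 21.22 and 22.09 CPM against 17.98, 11.39 and 16.4 CPM (0.52 ± 0.15, adjusted p = 0.00243). The groups did not overlap for any of the 6 members, as for 64.1% of all genes. So 4 rose and 2 fell, while 50% of all genes rose and 12.3% fell around a median of 0.33 on the log2 scale. With TMM scaling, under which 32.3% of genes rose and 32.1% fell, the change was 1.04 for Suz12, 0.50 for Mtf2, 0.28 for Ezh2 (adjusted p = 0.00416), -0.77 for Eed and -0.75 for Jarid2, and Ezh1 no longer passed (0.16, adjusted p = 0.265). Leaving out any 1 of the 6 libraries lost none of the 6 calls made on CPM as deposited and none of the 5 made with TMM scaling.

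The effect of 2i/L at passage 20 was then set against that at passage 10 in 1 test of the difference. For CPM as deposited, the difference of log2 fold changes was 0.12 ± 0.20 for Suz12, 0.18 ± 0.21 for Mtf2, 0.07 ± 0.19 for Eed, 0.10 ± 0.19 for Jarid2, 0.33 ± 0.21 for Ezh2 and 0.19 ± 0.23 for Ezh1. None of the 6 passed limma's test, with adjusted p of 0.212 to 0.801, none had an unadjusted p under 0.05, and all 6 turned negative with TMM scaling, with adjusted p of 0.105 to 0.954. Over all genes 29.9% were called higher and 7.1% lower in this test, around a median of 0.29. The 95% interval for Suz12 ran from -0.30 to 0.53, so a difference of a size within it cannot be told from 0 here.

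Within a library a ratio of 2 genes does not depend on scaling, and these ratios were chosen after the values of the members had been seen. The ratio of Suz12 to Eed CPM was 0.878 ± 0.129 (SD, n = 2) in S/L and 2.99 ± 0.257 (n = 2) in 2i/L at passage 10. It was 0.609 ± 0.0152 (n = 3) in S/L and 2.16 ± 0.273 (n = 3) in 2i/L at passage 20. The ratio was thus 3.41-fold higher in 2i/L at passage 10 and 3.54-fold higher at passage 20. The ratio of Mtf2 to Jarid2 was 1.01 ± 0.0367 and 2.26 ± 0.133 at passage 10 and 0.786 ± 0.0313 and 1.88 ± 0.162 at passage 20, which is 2.25-fold and 2.38-fold higher in 2i/L. No library of one medium overlapped with the other in either ratio. The two-sided exact permutation p was 0.1 at passage 20 and 0.333 at passage 10, the smallest values that 3 against 3 and 2 against 2 libraries allow. Each pair set a gene that rose without overlap over one that fell without overlap, so these p-values were fixed in advance and lend no support. The ratio of Ezh2 to Ezh1 in 2i/L was 0.987 of that in S/L at passage 10 and 1.09-fold at passage 20 (permutation p = 0.667 and 0.5).

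**Figure D3:**
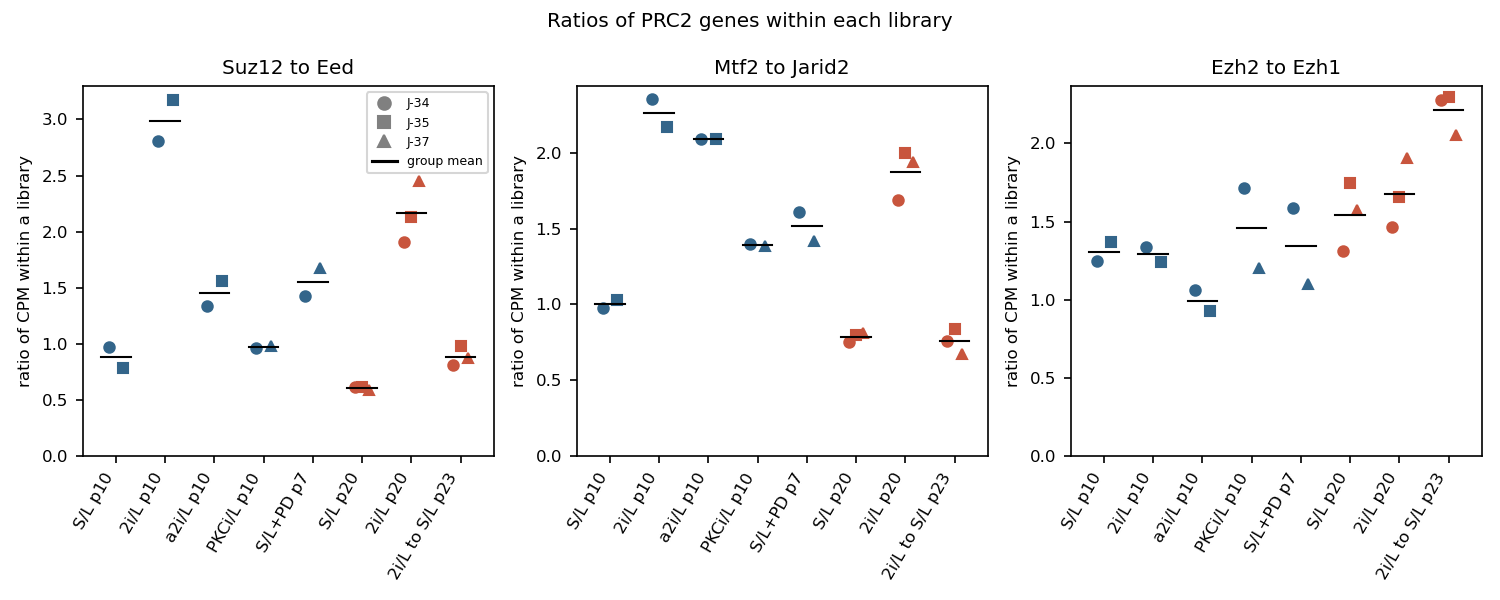
Ratio of the CPM of 2 PRC2 genes within each library (vertical axes, from 0) in the 8 groups, with 1 point per library, marker shape for the line and a black bar for the group mean. Suz12 to Eed and Mtf2 to Jarid2 are higher in 2i/L than in S/L at both passages, and Ezh2 to Ezh1 is highest in the return group.

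In a2i/L at passage 10, Jarid2 was the member furthest from S/L, and Ezh1 was higher. Jarid2 read 95.92 and 98.8 CPM in lines J-34 and J-35, against 194.67 and 173.15 CPM in S/L, and fell to 0.532 of the S/L level (-0.91 ± 0.15, adjusted p = 8.6e-06). Ezh1 read 28.96 and 36.4 CPM against 22.77 and 19.55 CPM and rose (0.61 ± 0.18, adjusted p = 0.00938). Eed, at 78.63 and 72.32 CPM, fell just past the threshold (-0.39 ± 0.15, adjusted p = 0.0468). The a2i/L and S/L libraries did not overlap for any of the 6 members, as for 68.1% of all genes. Suz12 was at 105.39 and 112.75 CPM (0.33 ± 0.16, adjusted p = 0.121), Ezh2 at 30.69 and 33.69 CPM (0.22 ± 0.16, adjusted p = 0.332) and Mtf2 at 200.63 and 206.52 CPM (0.14 ± 0.16, adjusted p = 0.557).

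So 1 member rose and 2 fell in a2i/L, with 10.7% of all genes higher and 17.3% lower. TMM scaling, with 18.7% of genes higher and 18.2% lower, added Suz12 (0.42, adjusted p = 0.00888) and Ezh2 (0.31, adjusted p = 0.0161). Eed missed the threshold with the ESC line as replicate block (adjusted p = 0.0504) and without any 1 of the 4 libraries (adjusted p of 0.090 to 0.25). Without J-35 of S/L or of a2i/L, Ezh1 missed it too (adjusted p = 0.12 and 0.17), as did Ezh2, Eed and Suz12 with TMM scaling.

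Set against 2i/L at passage 10, a2i/L had less Suz12, Mtf2 and Jarid2. Suz12 was 0.515 of its 2i/L level (-0.96 ± 0.16, adjusted p = 7.47e-06), Mtf2 0.685 (-0.55 ± 0.16, adjusted p = 0.00725) and Jarid2 0.741 (-0.43 ± 0.15, adjusted p = 0.0193). The 2 media did not overlap for any member, but the share of all genes without overlap was not read here. Between a2i/L and S/L, also 2 libraries each, that share was 68.1%, so the lack of overlap is not read as a result about the members. Among all genes 23.9% were lower and 11.8% higher, and the median was -0.12. The Jarid2 call was lost without any 1 of the 4 libraries (adjusted p of 0.056 to 0.14) and the Mtf2 call without J-34 of 2i/L (adjusted p = 0.0511) or of a2i/L (adjusted p = 0.0505). With TMM scaling, which called 21.2% of genes higher and 22.9% lower, Ezh1 was higher in a2i/L than in 2i/L (0.39, adjusted p = 0.0377), a call lost without J-34 of 2i/L or J-35 of either medium, and the scaled Jarid2 call was lost without J-35 of 2i/L or either a2i/L library.

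In PKCi/L at passage 10, Jarid2 was the 1 member that passed on CPM as deposited. It read 118.27 CPM in J-34 and 89.34 CPM in J-37, both under the S/L values, and fell to 0.561 of the S/L level (-0.83 ± 0.15, adjusted p = 2.85e-05). Mtf2 read 165.44 and 123.7 CPM against 190.69 and 178.59 CPM and missed the threshold (-0.37 ± 0.16, adjusted p = 0.0846), but passed without J-34 of PKCi/L (-0.58, adjusted p = 0.024). Suz12 read 93.05 and 82.05 CPM, near the 92.03 and 81.7 CPM of S/L (0.01 ± 0.16, with a 95% interval of -0.31 to 0.33). Ezh2 read 33.22 and 28.43 CPM (0.15 ± 0.16, adjusted p = 0.509). Eed (96.52 and 83.84 CPM, -0.14 ± 0.15), Ezh1 (19.35 and 23.64 CPM, 0.02 ± 0.18) and Suz12 overlapped with S/L. Among all genes 23.5% were lower and 5.8% higher, around a median of -0.17. TMM scaling, with 18% of genes higher and 18.6% lower, added Ezh2 as higher (0.34, adjusted p = 0.00884), a call lost without J-35 of S/L or J-34 of PKCi/L. One PKCi/L and one S/L+PD library are J-37 by title and J-35 by another label, so by title the comparisons of these media also set J-37 against J-35.

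Suz12 and Mtf2 separated PKCi/L from 2i/L at passage 10. Suz12 was 0.413 of its 2i/L level (-1.28 ± 0.16, adjusted p = 1.87e-08) and Mtf2 0.482 (-1.05 ± 0.16, adjusted p = 1.15e-06), where 33.2% of all genes were lower and 11.5% higher around a median of -0.18. Jarid2 passed narrowly (-0.35 ± 0.15, adjusted p = 0.0468) but not with the ESC line as replicate block (-0.33, adjusted p = 0.0942), nor with TMM scaling (-0.14, adjusted p = 0.292). Eed was the reverse, at 0.34 ± 0.15 (adjusted p = 0.068) as deposited and 0.55 (adjusted p = 0.000128) with TMM scaling, which called 26% of genes higher and 27.4% lower. The Jarid2 call was also lost without either 2i/L library or J-37 of PKCi/L.

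In S/L+PD, where cells spent 3 passages with PD, Eed and Jarid2 were lower than in S/L, as they were in 2i/L, while Suz12 and Mtf2 did not pass. Eed read 67.24 CPM in J-34 and 61.26 CPM in J-37 (-0.62 ± 0.15, adjusted p = 0.00115) and Jarid2 116.24 and 121.72 CPM (-0.62 ± 0.15, adjusted p = 0.000895). Both lay under both S/L libraries, and Suz12 and Ezh2 lay above both, but the share of all genes without overlap was not read here. Between a2i/L and S/L, also 2 libraries each, that share was 68.1%. Suz12 read 96.15 and 102.88 CPM (0.20 ± 0.16, adjusted p = 0.352) and Mtf2 186.99 and 172.86 CPM (-0.04 ± 0.16, adjusted p = 0.878). With TMM scaling Suz12 was at 0.27 (95% interval 0.02 to 0.52) and still missed the threshold (adjusted p = 0.0705). Ezh2 was at 30.68 and 28.59 CPM (0.10 ± 0.16) and Ezh1 at 19.3 and 25.91 CPM (0.08 ± 0.18). So 2 members fell and 0 rose by limma, with 19.3% of all genes lower and 16.4% higher, the same members passed with TMM scaling (21.3% of genes lower and 23.4% higher), and none of the others had an unadjusted p under 0.05 as deposited.

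A direct test set S/L+PD against 2i/L at passage 10. Suz12 was 0.470 of its 2i/L level (-1.09 ± 0.16, adjusted p = 8.63e-07) and Mtf2 0.605 (-0.72 ± 0.16, adjusted p = 0.000524), where 20.3% of all genes were lower and 12.7% higher (20.5% and 19.9% with TMM scaling, with the same 2 members called). Eed (-0.15 ± 0.15, 95% interval -0.45 to 0.16) and Jarid2 (-0.15 ± 0.15, 95% interval -0.44 to 0.15) missed the threshold in it. S/L+PD cells were at passage 7 and the others at passage 10, so medium and passage number cannot be told apart here. The comparisons at passages 7 and 10 share the 2 S/L libraries or the 2 2i/L libraries, so their changes are not independent of each other.

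After the return from 2i/L to S/L, Suz12 and Mtf2 overlapped with cells kept in S/L, while Ezh2 lay above them. The returned cells were at a later passage than these S/L cells, which were at passage 20. No library came from cells kept in S/L to that later passage, so the return and passage number cannot be told apart here. Ezh2 read 45.39, 42.21 and 33.37 CPM in J-34, J-35 and J-37 of the return, against 23.54, 19.88 and 25.85 CPM in S/L at passage 20. Every returned library was above every S/L library, and Ezh2 rose 1.73-fold (0.79 ± 0.13, adjusted p = 8.94e-06; 0.55 with TMM scaling, adjusted p = 1.54e-05). It was the 1 member called, with 32.7% of all genes higher and 6.63% lower around a median of 0.20. Its ratio to Ezh1 was 2.21 in the return and 1.54 in S/L at passage 20, a 1.44-fold difference with a two-sided exact permutation p of 0.1, the smallest possible here.

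The other members of the return overlapped with S/L at passage 20. Suz12 read 59.17, 57.19 and 43.94 CPM (0.28 ± 0.13, adjusted p = 0.0794) and Mtf2 104.6, 99.98 and 70.5 CPM (-0.02 ± 0.13, adjusted p = 0.916). Eed read 73.27, 58.48 and 50.41 CPM (-0.25 ± 0.12, adjusted p = 0.108), Jarid2 137.63, 119.21 and 104.94 CPM (0.04 ± 0.12, adjusted p = 0.823) and Ezh1 19.9, 18.36 and 16.24 CPM (0.26 ± 0.15, adjusted p = 0.152). For all 6 members the J-37 library of the return was the lowest of the 3 on both scales. The J-34 library was the highest for all 6 as deposited, as were its summed CPM, but with TMM scaling J-35 was the highest for Ezh2 (45.3 against 45.1 scaled CPM), Suz12 (61.3 against 58.7) and Mtf2 (107.3 against 103.8). TMM scaling, with 21.5% of genes higher and 22.8% lower, put Eed lower (-0.49, adjusted p = 8.19e-05) and Mtf2 lower (-0.27, adjusted p = 0.0403). Single libraries also decided calls: Ezh1 passed without J-34 of S/L (0.39, adjusted p = 0.0495), Eed without J-34 of the return (-0.39, 0.016) and Suz12 without J-37 of the return (0.42, 0.013), and the scaled Mtf2 call was lost without J-35 or J-37 of S/L or J-37 of the return.

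Against the 2i/L cells from which they were switched, returned cells had less Suz12 and Mtf2 and more Jarid2. The returned cells were at a later passage than these 2i/L cells, so medium and passage number cannot be told apart in this comparison either. Suz12 was 0.459 of its 2i/L level at passage 20 (-1.12 ± 0.13, adjusted p = 4.35e-09) and Mtf2 0.539 (-0.89 ± 0.13, adjusted p = 6.83e-07), and Jarid2 was 1.33-fold higher (0.42 ± 0.12, adjusted p = 0.0045). None of these, nor Ezh1, overlapped between the groups, but the share of all genes without overlap was not read here. Between 2i/L and S/L at passage 20, also 3 libraries each, that share was 64.1%, so the lack of overlap is not read as a result about the members. Among all genes 30.3% were lower and 15.8% higher around a median of -0.11. Ezh2 (0.14 ± 0.13, adjusted p = 0.394) and Eed (0.15 ± 0.12, adjusted p = 0.317) missed the threshold and passed with TMM scaling (0.27, adjusted p = 0.00737, and 0.28, adjusted p = 0.00765), which called 27.3% of genes higher and 27.7% lower. The scaled calls were lost without J-34 of 2i/L for Ezh2 (adjusted p just above 0.05) and without J-34 of the return for Eed (adjusted p = 0.0658).

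With passage in S/L, from 10 to 20, Suz12 and Mtf2 were lower on both scales. Suz12 went from 86.9 ± 7.30 CPM (SD, n = 2) to 43.5 ± 2.40 CPM (n = 3), a change of -0.99 ± 0.14 (adjusted p = 3.86e-07), or -0.44 with TMM scaling (adjusted p = 0.00209). Mtf2 went from 185 ± 8.56 CPM to 91.7 ± 4.51 CPM (-1.01 ± 0.15, adjusted p = 4e-07; TMM -0.45, adjusted p = 0.00248). Jarid2 (-0.65 ± 0.13), Eed (-0.47 ± 0.14) and Ezh1 (-0.48 ± 0.16) also passed as deposited, but not with TMM scaling, at -0.10, 0.08 and 0.06. Thus 5 members fell as deposited, where 60.3% of all genes were lower, 6.88% higher and the median was -0.52. With scaling Ezh2 was higher (0.29, adjusted p = 0.0101), against -0.26 ± 0.15 as deposited, and 25.8% of genes were higher and 27.4% lower. The scaled Suz12 call was lost without J-34 of S/L at passage 10 (adjusted p = 0.0504), the scaled Ezh2 call without J-35 of it, and the unscaled Ezh1 call without J-34 of S/L at passage 10 or J-35 at passage 20.

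In 2i/L the same pair fell between passages 10 and 20. Suz12 went from 213 ± 13.7 CPM (n = 2) to 117 ± 22.1 CPM (n = 3), a change of -0.87 ± 0.14 (adjusted p = 7.84e-06; TMM -0.66), and Mtf2 from 297 ± 1.58 CPM to 168 ± 14.8 CPM (-0.82 ± 0.15, adjusted p = 2.33e-05; TMM -0.62). Jarid2 fell too (-0.55 ± 0.13, adjusted p = 0.000949; TMM -0.34), and Eed fell as deposited (-0.40 ± 0.14, adjusted p = 0.0151) but missed the threshold with scaling (-0.19, adjusted p = 0.0867). So 4 members fell, where 37.2% of all genes were lower and 13.6% higher around a median of -0.22. With scaling, which called 24.2% of genes higher and 28.4% lower, Ezh2 was higher at passage 20 (0.28, adjusted p = 0.0129), against 0.07 ± 0.15 as deposited. The Eed call was lost without either 2i/L library of passage 10 or J-34 of passage 20, the scaled Ezh2 call without J-34 of passage 10 or J-37 of passage 20, and the scaled Jarid2 call without J-35 of passage 10. Passage number and the split between earlier and later libraries cannot be told apart in these comparisons.

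In CPM as deposited, the order of the groups differed between members. Suz12 was highest in 2i/L at passage 10 (213 CPM), followed by 2i/L at passage 20 (117 CPM), whose range held a2i/L and S/L+PD (109 and 99.5 CPM), and lowest in the return and in S/L at passage 20 (53.4 and 43.5 CPM, overlapping). Mtf2 stood highest in 2i/L at passage 10 (297 CPM), then in a2i/L (204 CPM), and lowest in the later S/L groups (91.7 CPM in each). Jarid2 was highest in S/L at passage 10 (184 CPM), clear of the next group, and lowest in 2i/L at passage 20 (89.8 CPM), clear of a2i/L above it but not of PKCi/L. Eed was highest in S/L and PKCi/L at passage 10 (99.4 and 90.2 CPM, overlapping) and lowest in 2i/L at passage 20 (53.9 CPM), which overlapped with the return. Ezh1 was highest in a2i/L (32.7 CPM), clear of the next group, and lowest in S/L at passage 20 (15.3 CPM). Ezh2 was highest in the return (40.3 CPM), which overlapped with 2i/L at passage 20, and lowest in S/L at passage 20 (23.1 CPM), clear of the rest. TMM scaling kept the highest group of every member except Eed, which was then highest in S/L at passage 20 (91.6 scaled CPM, overlapping with PKCi/L and S/L at passage 10). The lowest group moved from S/L at passage 20 to S/L at passage 10 for Ezh2 (24.0 scaled CPM) and Ezh1 (18.4 scaled CPM, overlapping with S/L at passage 20).

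Across the 19 libraries, after TMM scaling and centring within the earlier and within the later libraries, Suz12 and Mtf2 followed each other (Pearson r = 0.904). Eed and Jarid2 had r = 0.647, and Suz12 with Eed had r = -0.654. These are descriptions over libraries that share media and lines. Among 8855 genes whose mean reached 5 CPM, the patterns most like Suz12 were those of Lemd3, Zfp148 and Dmxl1 (r = 0.978, 0.977 and 0.975), and the most like Mtf2 were Clock, Dcp2 and Foxn2 (0.948, 0.944 and 0.942). Closest to Eed were Tmem126a, Psmb7 and Hmgn1 (0.957, 0.954 and 0.949), and to Jarid2 were Lrp2, Rbpj and Eif2b3 (0.883, 0.870 and 0.869). Closest to Ezh2 were Eri1, Hk2 and Copb2 (0.904, 0.898 and 0.884), and to Ezh1 were 2010011I20Rik, Dhrs7 and Npc1 (0.882, 0.872 and 0.862).

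Suz12 and Mtf2 share a low GC content. Their longest coding transcripts have 41.6% and 38.2% GC, in the lowest of 5 equal GC classes. The classes hold the 7926 genes with a GC value and a mean of at least 5 CPM. Eed has 47.8%, Ezh2 44.4%, Jarid2 49.1% and Ezh1 51.2%. The median log2 fold change of the lowest class was 0.17 in 2i/L at passage 10 and 0.34 at passage 20. In the middle class it was 0.04 and 0.33, and the part of GC content in the results was not tested. Across these genes, the Spearman correlation of the change with GC was -0.205 at passage 10 and 0.00298 at passage 20. With transcript length it was 0.186 and 0.218, and the part of length was not tested. Between passages 10 and 20 in 2i/L, where Suz12 and Mtf2 fell, the correlation with GC was 0.305, the largest of the 13 comparisons. The median of the lowest class was then -0.45, against -0.31 in the middle class and -0.05 in the highest. Exons of Mtf2 share 395 bases with Tmed5 on the opposite strand, and whether counting used strand is not given in the sources used here. Tmed5 stood at 9.69 to 23.28 CPM, below every Mtf2 value, and rose in 2i/L at passage 10 (0.78 ± 0.17, adjusted p = 0.000337) and passage 20 (0.67 ± 0.14, adjusted p = 7.94e-05). Overlaps of 174 bases for Ezh2, 261 for Eed and 178 for Suz12 are with noncoding genes that are not in the table.

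Of the 9 partner genes of PRC2, Phf19, which encodes another Polycomb-like protein, fell in 2i/L, opposite to its relative Mtf2. Phf19 was at 7.78 CPM in both S/L libraries of passage 10 and at 2.13 ± 0.0424 CPM (n = 2) in 2i/L (-1.65 ± 0.22, adjusted p = 1.02e-07). At passage 20 it was at 7.62 ± 2.38 CPM (n = 3) in S/L and 1.07 ± 0.282 CPM (n = 3) in 2i/L (-2.34 ± 0.18, adjusted p = 1.61e-13), and in the return at 11.7 ± 1.26 CPM (0.63 ± 0.18 against S/L, adjusted p = 0.0047). It fell as well in a2i/L (-1.55 ± 0.22) and PKCi/L (-1.68 ± 0.22), while in S/L+PD it read 10.6 CPM on average (0.42, adjusted p = 0.137), and rose there with TMM scaling (0.49, adjusted p = 0.0429).

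Small counts of partners were named after their values were seen. In 2i/L at passage 10, where 22.7% of all genes rose and 17.5% fell, the median of the 9 was 0.11, with 1 of 9 higher, Lcor (0.52 ± 0.20, adjusted p = 0.039), and 1 lower, Phf19, and with TMM scaling Phf1, a further Polycomb-like gene, was also higher (0.46) and the histone-binding gene Rbbp7 lower (-0.23). At passage 20 6 of 9 were higher and 1 lower with a median of 0.43, beside 50% higher, 12.3% lower and a median of 0.33 for all genes, and with TMM scaling (32.3% and 32.1% of all genes) Aebp2 (0.86), Phf1 (0.79) and Lcor (0.98) were higher and Rbbp7 (-0.56) and Phf19 lower. Aebp2, a cofactor found with Jarid2 in PRC2, fell in a2i/L (-0.65 ± 0.15) and PKCi/L (-1.13 ± 0.15). The 3 that fell in a2i/L were Phf19, Aebp2 and Epop, listed as E130012A19Rik (-0.52), where Lcorl rose (0.53), and the 3 in PKCi/L were Phf19, Aebp2 and Ezhip, listed as AU022751 (-0.83), while 17.3% and 23.5% of all genes fell in these media. With TMM scaling Rbbp4 also rose in a2i/L (0.20), and Phf1 (0.57) and Lcorl (0.51) in PKCi/L. In S/L+PD Epop, an elongin-binding partner of PRC2 listed as E130012A19Rik (-0.85 ± 0.17), Ezhip, an inhibitor of PRC2 listed as AU022751 (-0.87 ± 0.25), and Rbbp7 (-0.58) fell, and Phf1 rose (0.81), beside 19.3% and 16.4% of all genes, and with TMM scaling Aebp2 (0.37) and Phf19 rose too. In the return, where 32.7% of all genes rose, Phf19 was the 1 partner of 9 that passed, and with TMM scaling Rbbp4, the other histone-binding gene, fell (-0.21).

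**Figure D4:**
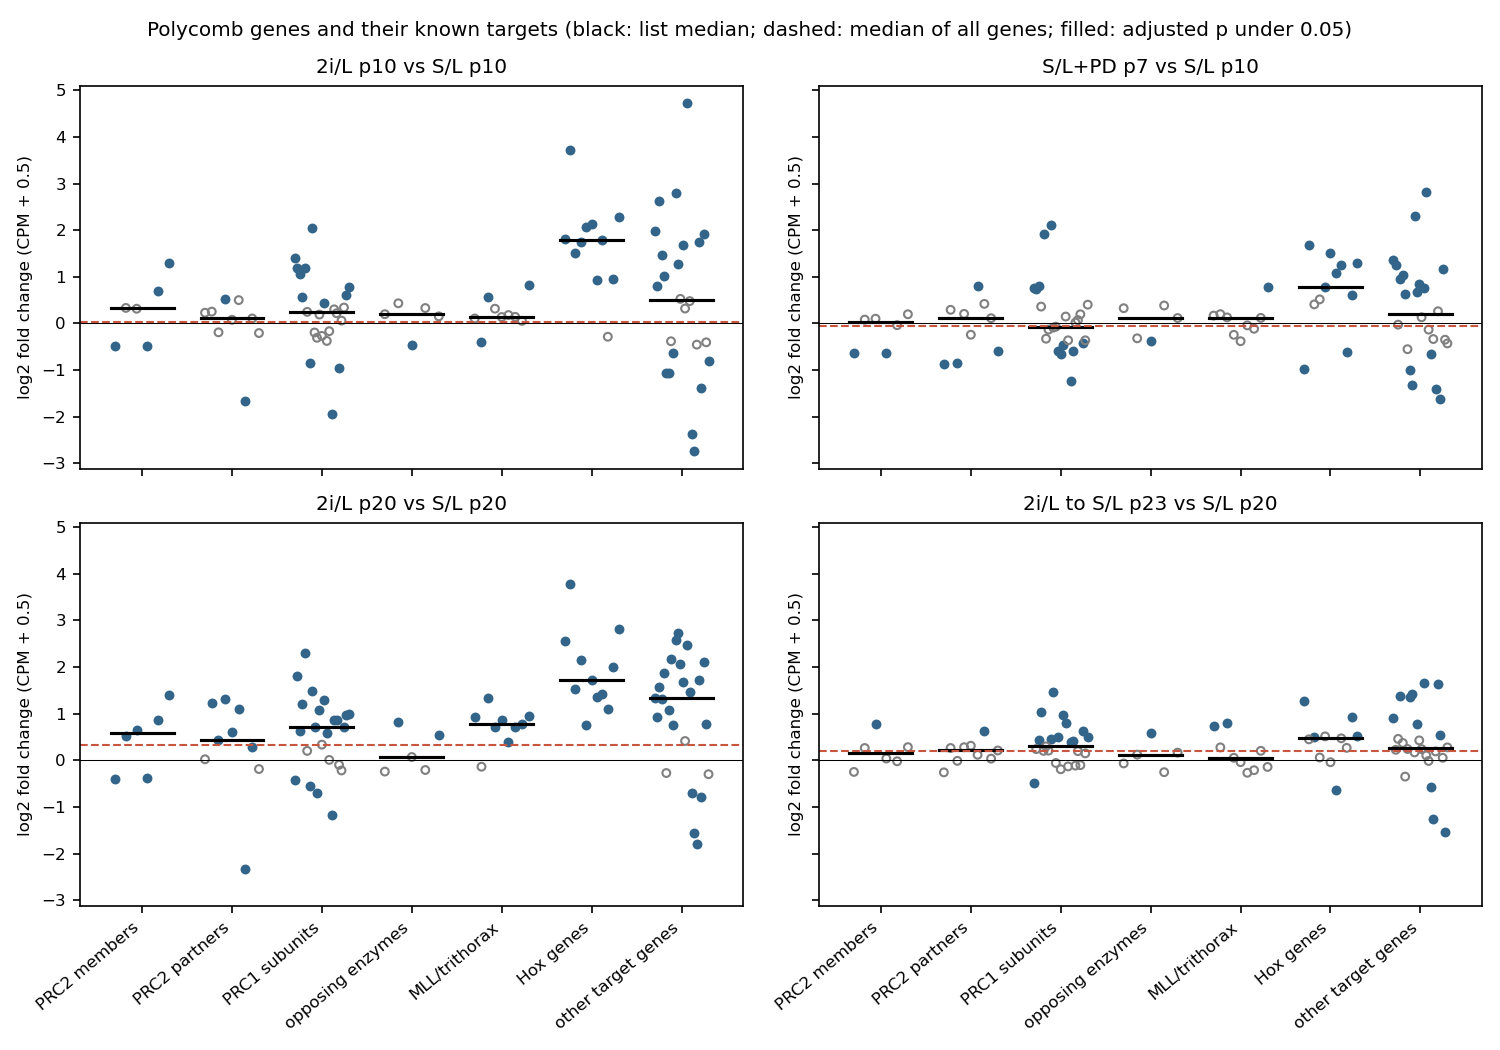
Log2 fold change of each measured gene (vertical axes) of 7 lists, including the PRC2 genes, in 4 comparisons with S/L, filled where the adjusted p is under 0.05, with a black bar for the list's median and a dashed line for the median of all genes. Hox genes lie mostly above the median of all genes in 2i/L at both passages and in S/L+PD, and nearer to it in the return.

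Genes of Polycomb repressive complex 1 (PRC1), which binds the H3K27 mark or CpG-rich DNA and modifies histone H2A, moved in both directions. Of 23 measured, 9 rose and 3 fell in 2i/L at passage 10, with a median of 0.25 (10 and 4 with TMM scaling), where 22.7% of all genes rose and 17.5% fell (26% and 23.4% with TMM scaling). At passage 20 14 rose and 4 fell with a median of 0.71 (12 and 7 with TMM scaling), against 50% and 12.3% of all genes (32.3% and 32.1% with TMM scaling). Cbx8, a reader of the mark, went from 0.31 ± 0.113 CPM to 2.85 ± 0.134 CPM in 2i/L at passage 10 (2.06 ± 0.23), and Phc1, a subunit that lets PRC1 polymerise, from 209 ± 21.2 CPM to 54.2 ± 8.97 CPM (-1.94 ± 0.18). At passage 20 Bcorl1, a subunit of a PRC1 form that binds CpG-rich DNA, rose by 1.81 ± 0.18. In S/L+PD 5 rose and 6 fell (8 and 7 with TMM scaling), against 16.4% and 19.3% of all genes (23.4% and 21.3%), and Cbx8 rose by 2.11 ± 0.23. In a2i/L 4 rose and 3 fell (7 and 3 with TMM scaling), against 10.7% and 17.3% of all genes (18.7% and 18.2%). In PKCi/L 4 fell as deposited, where 23.5% of all genes did, and 4 rose and 2 fell with TMM scaling, against 18% and 18.6%. In the return 11 rose and 1 fell, led by the CpG-binding Kdm2b (1.47 ± 0.14) and the reader Cbx2 (1.03 ± 0.15), and with TMM scaling 6 rose and 6 fell, where 32.7% of all genes rose and 6.63% fell as deposited and 21.5% and 22.8% with scaling.

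Enzymes and complexes that oppose PRC2 were also read. Of 5 opposing enzyme genes, 1 passed in 2i/L at passage 10, the H2A deubiquitinase Bap1 (-0.46 ± 0.15), which also fell in S/L+PD (-0.38 ± 0.15) and rose in the return (0.58 ± 0.12). With TMM scaling Kdm6a (0.30) and Asxl2 (0.41) rose at passage 10, where 22.7% of all genes rose and 17.5% fell as deposited and 26% and 23.4% with scaling. At passage 20, where 50% of all genes rose, the Bap1 partner gene Asxl2 (0.82 ± 0.15) and the H3K27 demethylase gene Kdm6b (0.55 ± 0.16) rose. But with TMM scaling Asxl2 alone rose and Kdm6a (-0.57), Bap1 (-0.30) and Asxl1 (-0.61) fell, beside 32.3% and 32.1% of all genes. With TMM scaling 2 of the 5 rose and 1 fell in S/L+PD, beside 23.4% and 21.3% of all genes. On that scale 1 rose in PKCi/L (18% of all genes), and 1 rose and 2 fell in the return (21.5% and 22.8%).

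Of 9 genes of MLL and trithorax complexes, which methylate lysine 4 of histone H3 at active genes, 2 rose and 1 fell in 2i/L at passage 10, beside 22.7% and 17.5% of all genes. At passage 20 8 rose, with a median of 0.77, and with TMM scaling 7 rose and 1 fell, beside 50% of all genes higher as deposited and 32.3% with scaling. Wdr5, a shared core subunit, rose at both (0.83 ± 0.15 and 0.96 ± 0.12), as did Men1 (0.56 ± 0.17 and 1.33 ± 0.14). Against 2i/L, the return had 7 of the 9 lower on both scales, where 30.3% of all genes were lower as deposited and 27.7% with scaling.

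Known Polycomb targets were read as a further description. Of 38 Hox genes listed 11 were in the table, and 10 of these rose in 2i/L at passage 10 with a median of 1.78, where 22.7% of all genes did, and all 11 measured rose at passage 20 with a median of 1.72, where 50% of all genes did. Listed genes reach at least 1.01 CPM in their third-highest library, so a target enters the table mainly where some group expresses it, and these counts describe the listed genes alone. Hoxa10 went from 0.045 ± 0.0212 CPM to 6.65 ± 0.0707 CPM at passage 10 (3.71 ± 0.27) and from 0.05 ± 0.04 CPM to 7.2 ± 2.13 CPM at passage 20 (3.77 ± 0.22). In the return 4 of 11 were higher than in S/L and 1 lower, against 32.7% and 6.63% of all genes, and 10 of 11 were lower than in 2i/L, where 30.3% of all genes were. In S/L+PD 7 rose and 2 fell (16.4% and 19.3% of all genes), in a2i/L 5 rose (10.7% of all genes), and in PKCi/L 1 rose and 3 fell (5.8% and 23.5% of all genes).

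Of 72 other developmental regulators known as Polycomb targets in ESCs, 24 were measured. As for the Hox genes, a target enters the table mainly where some group expresses it. These counts therefore describe the listed genes alone, and the shares of all genes are no test of them. In 2i/L 11 rose and 7 fell at passage 10 (median 0.50), against 22.7% and 17.5% of all genes. At passage 20 17 rose and 4 fell (median 1.33), and 17 and 6 with TMM scaling, against 50% and 12.3% of all genes (32.3% and 32.1% with scaling). The homeobox genes Meis2 (4.72 ± 0.29) and Gsc (2.80 ± 0.24) rose most at passage 10, and Irx2 (2.73 ± 0.18) and Gsc (2.58 ± 0.20) at passage 20. In S/L+PD, where Suz12 and Mtf2 did not pass, 11 rose and 5 fell, with Meis2 at 2.82 ± 0.29, against 16.4% and 19.3% of all genes. In PKCi/L 4 rose and 8 fell (4 and 7 with TMM scaling), against 5.8% and 23.5% of all genes (18% and 18.6%). In a2i/L 3 rose and 5 fell (4 and 5 with TMM scaling), near the 10.7% and 17.3% of all genes (18.7% and 18.2%). In the return 8 rose and 3 fell against S/L (8 and 4 with TMM scaling), where 32.7% and 6.63% of all genes did (21.5% and 22.8%).

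DNA replication and E2F target genes were read because Ezh2 and Eed are themselves known E2F targets. Of 25 measured, 4 rose and 3 fell in 2i/L at passage 10, where Ccne2 rose (1.51 ± 0.19) and Ccne1 fell (-1.07 ± 0.17), and 7 rose and 5 fell with TMM scaling, beside 22.7% and 17.5% of all genes as deposited and 26% and 23.4% with scaling. At passage 20 10 rose and 3 fell as deposited, and 3 rose and 8 fell with TMM scaling, against 50% and 12.3% of all genes, or 32.3% and 32.1% with scaling. In S/L+PD 1 rose and 10 fell (2 and 12 with TMM scaling), against 16.4% and 19.3% of all genes (23.4% and 21.3%). In the return, where Ezh2 was highest, 12 rose as deposited, where 32.7% of all genes did, among them Ccne1 (0.84 ± 0.14) and Rrm1 (0.74 ± 0.11), and 10 rose and 6 fell with scaling, against 21.5% and 22.8%.

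Markers of other cells moved with the media. The summed level of 18 of 20 fibroblast markers, which feeder cells express, was 578 to 605 CPM in S/L at passage 10, 1253 to 1428 in 2i/L, 920 to 1141 in a2i/L, 918 to 953 in PKCi/L and 2401 to 3348 in S/L+PD. It was 370 to 432 CPM in S/L and 956 to 1183 in 2i/L at passage 20 and 248 to 328 in the return. In 2i/L at passage 10, 14 of the 18 rose and 1 fell (22.7% and 17.5% of all genes). At passage 20, 14 rose and 3 fell (50% and 12.3%). All 18 measured rose in S/L+PD (16.4% of all genes). The larger sums in a2i/L and PKCi/L were not shared by most markers. In a2i/L 2 rose and 5 fell (median -0.36), against 10.7% and 17.3% of all genes, and 4 fell with TMM scaling (18.2%). In PKCi/L 3 rose and 5 fell (median -0.19), against 5.8% and 23.5%, and 2 fell with TMM scaling (18.6%). In the return 6 fell (9 with TMM scaling), against 6.63% of all genes (22.8%). The sum was largest in S/L+PD, where Suz12 and Mtf2 did not pass, and smallest in the return, where Ezh2 was highest. In each group at most 1 of the 18 was at 0 in a library. The summed level of 11 of 16 primitive endoderm markers ran from 116 to 915 CPM and that of 7 of 11 trophoblast markers from 25.0 to 115 CPM over all libraries, highest in S/L+PD for both. The endoderm sum there, 839 to 915 CPM, was mostly Sparc, at 564 CPM on average. Of the 11 endoderm markers 5 rose and 6 fell in S/L+PD, with a median of -0.76 against -0.06 for all genes. Of the 7 trophoblast markers 4 rose and 1 fell there (3 and 1 with TMM scaling). The part of these cells in the PRC2 values was not tested.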

How the data were processed

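RNA of 19 libraries, ribosome-depleted and made with a strand-marking kit per the labels' protocols, was sequenced as paired ends. Per the submitters' processing notes the authors used HTSeq 0.6.0, STAR 2.3.0, edgeR 3.8.6, SAMtools 0.1.18.0 and Picard 1.100 and the builds mm9 and NCBIM37. The deposited values are linear CPM per gene, rounded by the authors to 2 decimals, and all genes listed reach at least 1.01 CPM in their third-highest library. Columns were matched to samples by title, and 0 columns were left unused. No 2 libraries were identical, and libraries of a group had a Pearson r of 0.989 to 0.995.

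Values were tested as log2(CPM + 0.5), a scale that understates changes of low genes, with limma 3.58.1 in R 4.3.3 (lmFit and eBayes with trend, 1 fit over 8 groups with 11 residual degrees of freedom). Adjustment was over all 12942 genes within each of 13 comparisons, with a threshold of 0.05. The filter of at least 1 CPM in 2 libraries removed 0 genes. The fit was tested on simulated data. P-values rest on 1 spread per gene, pooled over the libraries of all 8 groups and moderated towards the trend of all genes. They do not measure the spread of the 2 or 3 lines compared. The same 3 lines recur across groups, and their libraries were treated as independent in the main fit. Depth, read from CPM steps, is known for 12 libraries. The rounding kept whole reads from being recovered to the precision needed, so no count test is reported. A trial of one on the libraries of passages 7 and 10 was dropped for that reason after its results had been seen, and it had called some members that limma did not and, with TMM scaling, missed a call that limma made.

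The members and lists were chosen with earlier results of these data known. Named genes are the 6 members, in each list at most 2 called genes of largest change per comparison with S/L, and the 3 genes most like each member. The ratios, Tmed5 and list genes beyond the rule were named after their values were seen, and a gene that the rule names is not reported here. Alternatives were TMM scaling (an own unweighted form, trims of 30% and 5%), pseudocounts of 0.1 and 1, no filter, a mean of at least 5 CPM, the ESC line as replicate block, a fit of only the groups compared, and each library left out. TMM scaling with a library left out or with the block was added after seeing the data. The replicate number is the ESC line, so same-numbered libraries pair. In the groups of 3 libraries, deviations from the group means correlated with a median r of 0.0991 between libraries of one line (9 pairs, -0.0964 to 0.272, with 4 above 0.1) and -0.0604 between lines (18 pairs).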

Additional observations from a re-analysis of the deposited data

How the results depend on the processing

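Of 78 member changes, pseudocounts of 0.1 and 1 and no filter moved none across the threshold or to the other sign. TMM scaling had the most effect: the members called went to 5 in a2i/L against S/L (3 as deposited), 2 in PKCi/L against S/L (1), 3 in the return against S/L (1), 5 in the return against 2i/L (3), and 3 between passages in S/L (5), and 14 changes turned sign. These were Eed in PKCi/L (0.050), Mtf2 in S/L+PD (0.0370) and Jarid2 in the return (-0.21), each against S/L, and Ezh2 in a2i/L (0.0196) and PKCi/L (0.0523) against 2i/L. Between passages in S/L they were Ezh1 (0.0595), Ezh2 (0.29) and Eed (0.0793), and in the difference of the 2i/L effects Ezh1 (-0.15), Ezh2 (-0.0105), Eed (-0.27), Suz12 (-0.23), Jarid2 (-0.24) and Mtf2 (-0.16). Scaling removes the shift of the median of all genes by its own construction. With the ESC line as replicate block, the calls of Eed in a2i/L against S/L (adjusted p = 0.0504) and Jarid2 in PKCi/L against 2i/L (0.0942) were lost and no other call changed, while Ezh1 in PKCi/L (-0.0541) and Mtf2 in S/L+PD (0.0356) turned sign without a call.

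A fit of only the groups compared added 5 calls and lost 1, and the limit of 5 CPM lost 2, and the cause was not tested. With 1 library left out, the members called ranged from 1 to 2 in a2i/L, 1 to 2 in PKCi/L and 1 to 2 in the return against S/L, and from 1 to 2 in a2i/L against 2i/L. Uncalled changes that crossed 0 then ranged from -0.12 to 0.16 for Ezh1 and -0.0793 to 0.10 for Suz12 in PKCi/L, from -0.13 to 0.29 for Ezh1 and -0.0941 to 0.0190 for Mtf2 in S/L+PD, and from -0.13 to 0.16 for Mtf2 and -0.0604 to 0.13 for Jarid2 in the return against S/L. The range was -0.0372 to 0.16 for Ezh2 between passages in 2i/L, and -0.00382 to 0.31 for Ezh1 and -0.0129 to 0.26 for Suz12 in the difference of the 2i/L effects. With 2 libraries a group, leaving one out assumes that the other varies like the remaining groups.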
